A study of Homo sapiens with 9 samples.

Results

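The 43 genes described here code for the transporters that carry glucose and lactate, the enzymes of glycolysis, the regulators of its flux, and the hypoxia-inducible factors (HIFs) with their oxygen sensors and targets. They were chosen by symbol, as 4 transporters, 15 glycolytic enzymes, 6 lactate dehydrogenases and flux regulators, 5 HIF subunits and oxygen-sensing genes and 13 other HIF targets. All 43 were among the 24344 genes of the count table and passed the filter on low counts, which left 14195 genes for testing.

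The libraries were unstranded, made from the total RNA of MDA-MB-231 cells, a long-established line of human breast adenocarcinoma. The treatments lasted 48 h and were Compound Kushen Injection (CKI, made from the herbs Kushen and Baituling) and an injection of either herb by itself, here called Kushen and Baituling, with 3 libraries of each. CKI was used at a total alkaloid concentration of 2 mg/mL, and both single-herb injections were diluted to the concentration that matches it. No hypoxic culture was among the libraries used, untreated libraries were not analysed here, and each difference below is between a pair of treatments.

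The total count per library was 20144628 to 23782071. Of 7 genes chosen to mark this mesenchymal-like line, 6 had 2334 or more counts in every library, while SPARC had 19 to 60. KRT8, which was placed on the list of low genes, had 12871 to 27575, and ESR1 and PGR had at most 4. The leukocyte markers and the endothelial marker CDH5 had at most 9, and the other endothelial marker, PECAM1, was not matched to a gene of the count table. The summed level of 4 fibroblast markers was 5.01 to 5.52 CPM (counts scaled to a common library total) in Baituling, 10.5 to 12.5 in Kushen and 20.2 to 21.5 in CKI, with DCN and THY1 at 3 counts or fewer, and its part in the results was not tested. The nuclear RNAs NEAT1 and MALAT1 took 0.0115% to 0.0142% of the counts in Baituling, 0.105% to 0.209% in Kushen and 0.112% to 0.200% in CKI. Replication-dependent histone transcripts took 0.00845% to 0.00930%, 0.0265% to 0.0275% and 0.0655% to 0.0667% in the same order, without overlap. Whether these differences in the makeup of the libraries bear on the genes below was not tested either. In RNA from a whole culture, fewer cells of a kind and less RNA per cell cannot be told apart.

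Glycolysis splits glucose into pyruvate in the cytosol, and lactate dehydrogenase turns pyruvate into lactate, which leaves the cell through monocarboxylate transporters. Most steps can be run by more than a single isozyme. HIF1A and EPAS1 (HIF-2 alpha) are the oxygen-labile subunits of the HIF transcription factors. In oxygen the prolyl hydroxylases EGLN1 and EGLN3 mark them for VHL, which directs their breakdown. When oxygen is short they escape this and raise the transcription of glucose transporters, glycolytic enzymes and genes for vessel growth, acid handling and collagen maturation. HIF activity is set largely at the level of the protein, which RNA sequencing does not measure, and many breast cancer lines run glycolysis at a high rate in oxygen as well.

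Differences between treatments are given as log2 fold changes of CPM with their standard errors, after scaling of library sizes by the TMM method. A gene passed the test when its Benjamini-Hochberg adjusted p in edgeR's quasi-likelihood test was under 0.05, and it passed the threshold of the study when its log2 fold change was also above 1 or below -1. In CKI compared with Kushen, 15 of the 43 genes were higher, 10 were lower and 18 did not pass. Of all genes tested, 39.8% passed in either direction, 19.6% being higher and 20.2% lower. The median log2 fold change of the 43 genes was 0.06 and that of all genes 0.01. SLC16A1, which was higher, was the single gene past the threshold of the study, which 1.90% of all genes passed, 1.70% being higher.

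Compared with Baituling, both other treatments differed in many more genes, as the whole transcriptome did. In CKI 19 genes were higher, 19 were lower and 5 did not pass, on a background of 76.1% of all genes passing, 39.1% higher and 37.0% lower. Their median was -0.07 and that of all genes 0.03. The threshold of the study was passed by 4 genes (ANGPTL4, SLC2A3 and SLC16A1 higher, GAPDH lower), and by 19.1% of all genes, 11.2% being higher and 7.91% lower. In Kushen 16 genes were higher, 22 were lower and 5 did not pass, where 71.6% of all genes passed, and 35.6% of all genes were higher and 36.1% lower. The median was -0.15 and that of all genes 0.02, and ANGPTL4 alone passed the threshold of the study, which 15.2% of all genes passed, 8.50% being higher and 6.73% lower. The comparisons share libraries, so they are not independent of each other.

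The split into higher and lower genes depended on the scaling of the libraries. With library totals in place of TMM, 29.7% of all genes were higher and 12.9% lower in CKI than in Kushen, 57.0% and 22.6% in CKI against Baituling, and 50.6% and 24.6% in Kushen against Baituling. Of the 43 genes, 23 were then higher and 8 lower in CKI than in Kushen, 25 and 11 in CKI against Baituling, and 19 and 16 in Kushen against Baituling.

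The libraries of a pair of treatments did not overlap for 26 of the 43 genes in CKI and Kushen, 38 in CKI and Baituling and 39 in Kushen and Baituling. Among all genes these shares were 49.5%, 78.3% and 73.1%. The map of the 43 genes by library shows the groups by role, scaled by TMM. Against Baituling, most glycolytic enzymes were lower in CKI (11 of 15) and Kushen (10 of 15). Of the 13 other HIF targets, 9 were higher and 3 lower in CKI than in Baituling. Among all genes, 39.1% were higher and 37.0% lower in CKI than in Baituling, and 36.1% were lower in Kushen. A further list of 30 HIF targets went the other way, with 9 higher and 16 lower in CKI.

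**Figure D1:**
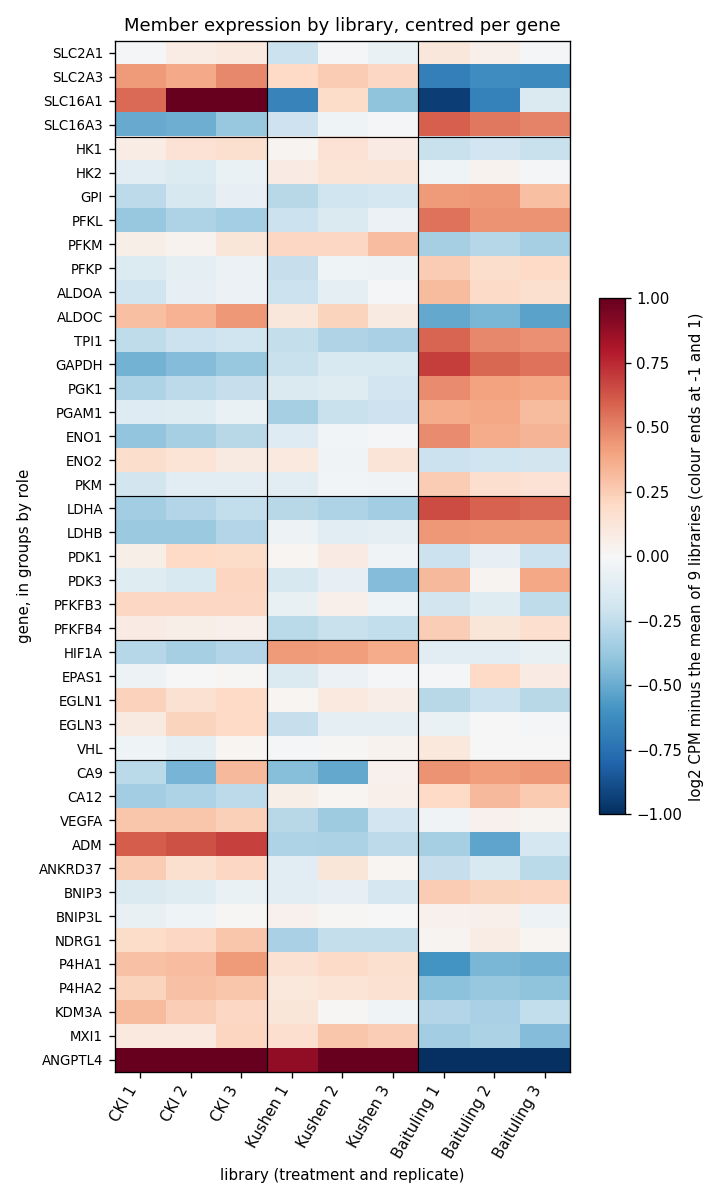
Expression of the 43 genes (rows, in groups by role) in the 9 libraries (columns) as log2 CPM minus the mean of the gene over all libraries, with red above and blue below that mean and colours ending at 1 and -1. ANGPTL4 is past the red end in most CKI and Kushen libraries and at the blue end in the 3 Baituling libraries.

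Of the glucose transporters, SLC2A1 (GLUT1, the main carrier of most cancer cells) differed little between treatments when scaled by TMM. SLC2A3 (GLUT3, a carrier of higher affinity) was higher in CKI and Kushen than in Baituling. SLC2A1 (chromosome 1, 43391024 to 43424564, build GRCh37) had 579, 614 and 626 CPM in CKI, 504, 576 and 559 CPM in Kushen and 633, 604 and 577 CPM in Baituling. Kushen replicate 1 was the lowest of the 9, and the CKI and Baituling libraries overlapped. CKI was higher than Kushen by 0.15 ± 0.050 (adjusted p 0.0234), and this call was lost without CKI replicate 2, CKI replicate 3 or Kushen replicate 1 (adjusted p 0.0866, 0.0953 and 0.112). The value in CKI against Baituling was 0.00 ± 0.050 (adjusted p 0.957). With library totals in place of TMM it was 0.29 and passed (adjusted p 3.69e-06). Kushen against Baituling was -0.15 ± 0.051 (adjusted p 0.0141), which turned to 0.064 with library totals, was -0.078 and did not pass with upper quartile scaling (adjusted p 0.138), and lost the call without Kushen replicate 1 or Baituling replicate 1 (adjusted p 0.0762 and 0.0833).

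SLC2A3 (chromosome 12, 8071826 to 8171603) had 138, 133 and 143 CPM in CKI, 118, 123 and 118 CPM in Kushen and 63.8, 66.6 and 66.2 CPM in Baituling. The 3 groups did not overlap, and every Baituling library lay below every other. The gene was 2.11-fold higher in CKI than in Baituling (1.08 ± 0.045, adjusted p 4.29e-14), 1.83-fold higher in Kushen than in Baituling (0.87 ± 0.045, adjusted p 1.68e-12), and 1.15-fold higher in CKI than in Kushen (0.20 ± 0.042, adjusted p 0.000805). Per transcript length (TPM), SLC2A3 made up 17.2% ± 0.676 of both carriers in CKI, 16.7% ± 0.80 in Kushen and 9.01% ± 0.534 with Baituling (n = 3, SD).

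The lactate carriers differed in opposite directions. SLC16A3 (MCT4, which exports lactate from glycolytic cells; chromosome 17, 80175810 to 80219005) had 692, 699 and 754 CPM in CKI, 847, 951 and 972 CPM in Kushen and 1485, 1413 and 1382 CPM in Baituling. The groups were in the order CKI, Kushen, Baituling without overlap. SLC16A3 was lower in CKI than in Baituling, with a log2 fold change of -0.997 ± 0.051 (adjusted p 9.52e-13). The value was -0.63 ± 0.051 in Kushen against Baituling (adjusted p 1.26e-09) and -0.37 ± 0.051 in CKI against Kushen (adjusted p 1.29e-05). Its fold against Baituling lay at the threshold of the study, and passed it without CKI replicate 3, Baituling replicate 2 or Baituling replicate 3 (-1.04, -1.01 and -1.02), while library totals gave -0.71.

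SLC16A1 (MCT1, which carries lactate either way) was near the lower end of what these libraries measure, with 53, 71 and 74 counts in CKI, 22, 39 and 24 in Kushen and 15, 16 and 23 in Baituling. As CPM these were 2.08, 2.86 and 2.92 in CKI, 0.885, 1.60 and 1.06 with Kushen and 0.732, 0.877 and 1.27 in Baituling. The CKI libraries lay above all others, while Kushen and Baituling overlapped. CKI was higher than Kushen by 1.14 ± 0.24 (adjusted p 0.00098; 0.96 without Kushen replicate 1, below the fold threshold) and higher than Baituling by 1.46 ± 0.27 (adjusted p 6.25e-05). SLC16A1 made up 0.529% of both lactate carriers per length in CKI, and less in the other treatments, so SLC16A3 was nearly all of the measured carrier RNA in each. SLC16A1 and SLC16A3 both overlap a gene on the opposite strand, whose reads cannot be told apart in unstranded libraries.

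The 15 glycolytic enzymes were mostly lower in CKI and Kushen than in Baituling. Compared with Baituling, 11 of the 15 were lower and 4 higher in CKI, and 10 were lower and 5 higher in Kushen. Each of the 15 thus passed in both comparisons. Of all genes, 76.1% passed in CKI and 71.6% in Kushen, 37.0% and 36.1% being lower. The median log2 fold changes of the 15 were -0.34 and -0.33. With library totals in place of TMM, 7 were lower and 5 higher in CKI, and 9 lower and 5 higher in Kushen, a scaling under which 22.6% and 24.6% of all genes were lower. ALDOA, PFKP and PKM then did not pass in CKI (-0.049, -0.019 and -0.033), nor PKM in Kushen (-0.030). CKI and Kushen differed less, with 2 enzymes higher, 6 lower and 7 not past the test in CKI, and a median of 0.00. Among all genes 19.6% were higher and 20.2% lower in this comparison. The balance of the enzymes depended on the scaling, since library totals gave 6 higher and 4 lower. With that scaling 29.7% of all genes were higher and 12.9% lower.

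Hexokinases trap glucose in the cell as its phosphate. HK2, the inducible form (chromosome 2, 75061254 to 75120486), had 144, 142 and 149 CPM in CKI, 166, 172 and 171 CPM in Kushen and 151, 160.4 and 155 CPM in Baituling. Kushen was the highest group and CKI the lowest, without overlap. HK2 was lower in CKI than in Kushen, with a log2 fold change of -0.22 ± 0.041 (adjusted p 0.000283). Its value against Baituling was -0.10 ± 0.042 in CKI (adjusted p 0.0379, and 0.19 with library totals) and 0.12 ± 0.042 in Kushen (adjusted p 0.0123). The CKI call was lost without CKI replicate 1, CKI replicate 2, Baituling replicate 2 or Baituling replicate 3 (adjusted p 0.0872, 0.136, 0.133 and 0.0581), and also with upper quartile scaling (-0.029, adjusted p 0.533) or with a filter of 10 counts in each library (-0.056, adjusted p 0.213). HK1, the housekeeping form, was higher than in Baituling by 0.34 ± 0.042 in CKI and 0.30 ± 0.042 in Kushen.

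GPI, which turns glucose 6-phosphate into fructose 6-phosphate, was lower than in Baituling, with log2 fold changes of -0.56 ± 0.050 in CKI and -0.61 ± 0.050 in Kushen. The phosphofructokinases, which take the committed step, did not move together. PFKL, the liver type (chromosome 21, 45719934 to 45747259), had 159, 168 and 164 CPM in CKI, 179, 188 and 199.9 CPM in Kushen and 303, 283 and 283 CPM in Baituling. The groups were again in the order CKI, Kushen, Baituling without overlap. In CKI PFKL was 1.77-fold below its level with Baituling (-0.82 ± 0.047, adjusted p 4.4e-12), and the value was -0.62 ± 0.046 in Kushen. PFKM, the muscle type, went the other way, with 0.39 ± 0.047 in CKI and 0.55 ± 0.046 in Kushen, and PFKP, the platelet type and by TPM the most abundant of them, was -0.31 ± 0.047 and -0.31 ± 0.047.

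The isozymes of aldolase and enolase split as the phosphofructokinases did. ALDOC, the brain type of aldolase (chromosome 17, 26900133 to 26903966), had 35.4, 36.6 and 39.0 CPM in CKI, 31.2, 33.6 and 30.6 CPM in Kushen and 20.2, 21.0 and 19.8 CPM in Baituling. Each CKI library lay above each Kushen library, and those above each Baituling library. ALDOC was 1.82-fold higher in CKI (0.86 ± 0.064, adjusted p 2.63e-10) and 1.56-fold higher in Kushen (0.65 ± 0.065, adjusted p 3.21e-08) than in Baituling. ALDOA, the major aldolase, was lower than in Baituling, with -0.34 ± 0.053 in CKI and -0.33 ± 0.053 in Kushen, and did not pass between CKI and Kushen (-0.00 ± 0.053, adjusted p 0.969).

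ENO1, the widespread enolase (chromosome 1, 8921059 to 8939249) and the most abundant of the 43 genes in CPM, had 2654, 2775 and 2887 CPM in CKI, 3197, 3422 and 3457 CPM in Kushen and 4856, 4514 and 4414 CPM in Baituling. No groups overlapped, CKI being lowest and Baituling highest. ENO1 was lower in CKI than in Baituling, with a log2 fold change of -0.73 ± 0.046 and with -0.28 ± 0.045 when compared with Kushen (adjusted p 8.66e-05), and Kushen against Baituling was -0.45 ± 0.045. ENO2, the neuronal type, was higher than in Baituling by 0.34 ± 0.046 in CKI and 0.27 ± 0.046 in Kushen, with 197, 191 and 185 CPM in CKI, 186, 169.9 and 190.1 in Kushen and 149.7, 151 and 153 in Baituling. Every Baituling library was thus below the other 6.

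These 4 promoters are shown because, with TMM, the abundant aldolase and enolase were lower, and the minor isozymes higher, in CKI and Kushen than in Baituling. With library totals, ALDOA in CKI against Baituling was -0.049 and did not pass. HIFs bind a core of ACGTG or GCGTG. The core was searched on both strands in the 250 bases before the gene start in RefSeq on GRCh38.p14, where a CACGTG holds a match on each strand, and the matches are in capitals. The windows are chr16:30065510-30065759, plus strand, for ALDOA, chr17:28576896-28577145, minus strand, for ALDOC, chr1:8878687-8878936, minus strand, for ENO1 and chr12:6914330-6914579, plus strand, for ENO2. The ALDOC window held 5 matches, ENO1 2, and ALDOA and ENO2 1 each.
ALDOA: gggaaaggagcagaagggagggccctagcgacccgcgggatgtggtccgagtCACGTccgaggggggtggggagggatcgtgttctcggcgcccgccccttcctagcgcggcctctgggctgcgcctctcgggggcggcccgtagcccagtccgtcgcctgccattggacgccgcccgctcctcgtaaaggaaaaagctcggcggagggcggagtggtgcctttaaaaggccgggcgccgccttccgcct
ALDOC: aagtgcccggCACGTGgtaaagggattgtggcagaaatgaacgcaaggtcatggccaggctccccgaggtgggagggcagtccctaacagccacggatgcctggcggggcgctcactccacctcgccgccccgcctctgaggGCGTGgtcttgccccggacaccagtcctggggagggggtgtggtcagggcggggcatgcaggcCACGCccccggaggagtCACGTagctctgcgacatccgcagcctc
ENO1: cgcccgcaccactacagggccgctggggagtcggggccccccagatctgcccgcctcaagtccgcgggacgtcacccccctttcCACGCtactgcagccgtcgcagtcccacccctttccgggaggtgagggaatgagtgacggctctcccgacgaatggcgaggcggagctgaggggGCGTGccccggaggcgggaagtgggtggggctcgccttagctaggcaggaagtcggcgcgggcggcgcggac
ENO2: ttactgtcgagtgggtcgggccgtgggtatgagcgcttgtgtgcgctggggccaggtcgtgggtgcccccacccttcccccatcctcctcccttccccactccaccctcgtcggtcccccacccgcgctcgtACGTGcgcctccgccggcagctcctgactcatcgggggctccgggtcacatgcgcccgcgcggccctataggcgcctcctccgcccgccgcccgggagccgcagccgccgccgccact
A match is a description of these letters and not a shown binding site. At least 1 core stood in 28 of the 37 genes of the 43 that have a promoter in the RefSeq table, or 75.7%, and in 43.2% of all 35116 promoters of the table. ACGTG alone stood in 45.9% of the 37 and in 18.5% of all promoters. The 37 genes were chosen for their roles in glycolysis and the HIF pathway, with 1 promoter used for each. All promoters of the table were not matched to them in gene class or base content, so the shares are a description only.

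When scaled by TMM, the steps from triose phosphate to pyruvate had lower levels in CKI and Kushen than in Baituling, apart from ENO2. GAPDH, which makes the first NADH of the pathway (chromosome 12, 6643678 to 6647540), had 1292, 1329 and 1381 CPM in CKI, 1540.4, 1609 and 1610.2 CPM in Kushen and 2896, 2676 and 2618 CPM in Baituling. The lowest Baituling library had 2618 CPM, the highest of the others 1610.2, and no groups overlapped. GAPDH was 2.05-fold lower in CKI (-1.03 ± 0.044, adjusted p 5.48e-14) and 1.72-fold lower in Kushen (-0.78 ± 0.044, adjusted p 4.85e-12) than in Baituling. CKI was also below Kushen, at -0.25 ± 0.043 (adjusted p 0.000152). The CKI value was -0.99 without Baituling replicate 1 and -0.75 with library totals, below the fold threshold of the study. GAPDH is often used as a reference gene, and in these libraries its CPM differed between treatments by more than the replicates did.

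TPI1, the isomerase of the triose phosphates (chromosome 12, 6976283 to 6980112), had 391, 402 and 407 CPM in CKI, 395, 379 and 373 CPM in Kushen and 698, 649.7 and 642 CPM in Baituling. CKI and Kushen overlapped (0.06 ± 0.043, adjusted p 0.254), and both lay well below Baituling. The log2 fold change against Baituling was -0.73 ± 0.043 in CKI (adjusted p 6.99e-12) and -0.79 ± 0.043 in Kushen (adjusted p 2.91e-12). PGK1, a step that makes ATP, was lower as well, with -0.69 ± 0.040 and -0.57 ± 0.040, and so was PGAM1, the mutase between PGK1 and enolase, with -0.47 ± 0.042 and -0.61 ± 0.042. PKM, the pyruvate kinase that ends the pathway, changed least of these, with -0.32 ± 0.041 and -0.24 ± 0.041, which were close to 0 with library totals. TPI1, GAPDH and ENO2 lie within 389 kb on chromosome 12, and ENO2 differed from Baituling in the opposite direction to the other two.

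**Figure D2:**
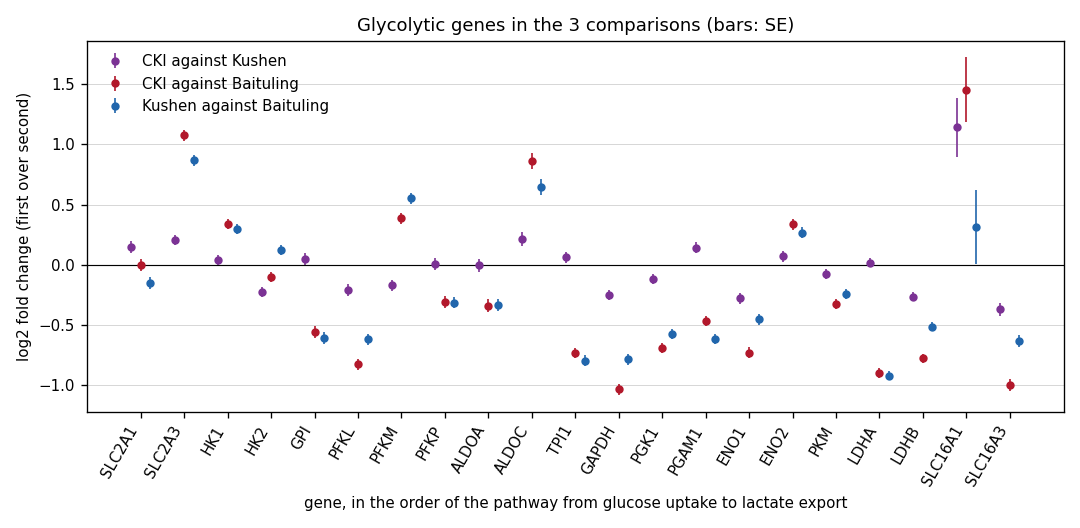
Log2 fold changes with standard errors (vertical axis) of the transporters, glycolytic enzymes and lactate dehydrogenases in the order of the pathway (horizontal axis), in the 3 comparisons. Both comparisons with Baituling run below 0 for most steps from GPI to LDHB, with PFKM, ALDOC and ENO2 above 0, while CKI against Kushen stays between -0.37 (SLC16A3) and 0.22 (ALDOC) except for SLC16A1.

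Many of these enzymes belong to the most abundant transcripts. With TMM, abundant transcripts as a class were lower in CKI and Kushen than in Baituling. This comparison was chosen after the values were seen. It was not repeated with library totals, which moved the median of all genes by 0.29 in CKI and 0.21 in Kushen against Baituling. Of the 560 genes with a mean of over 300 CPM, 75.9% were lower in CKI than in Baituling, with a median log2 fold change of -0.47. The 17 genes described here that lie in this class had 13 lower and the same median of -0.47. For Kushen against Baituling, 66.1% of the class was lower with a median of -0.30, and of the 17 genes 15 were lower with a median of -0.45. In CKI against Kushen, 60.7% of the class was lower with a median of -0.16, whereas 6 of the 17 genes were lower with a median of 0.01. The part of abundance in the values of the enzymes was not tested. Within this class, LDHA (-0.90 and -0.92) and GAPDH (-1.03 and -0.78) stood below the median of the class against Baituling, and HK1 (0.34 and 0.30) above it.

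**Figure D3:**
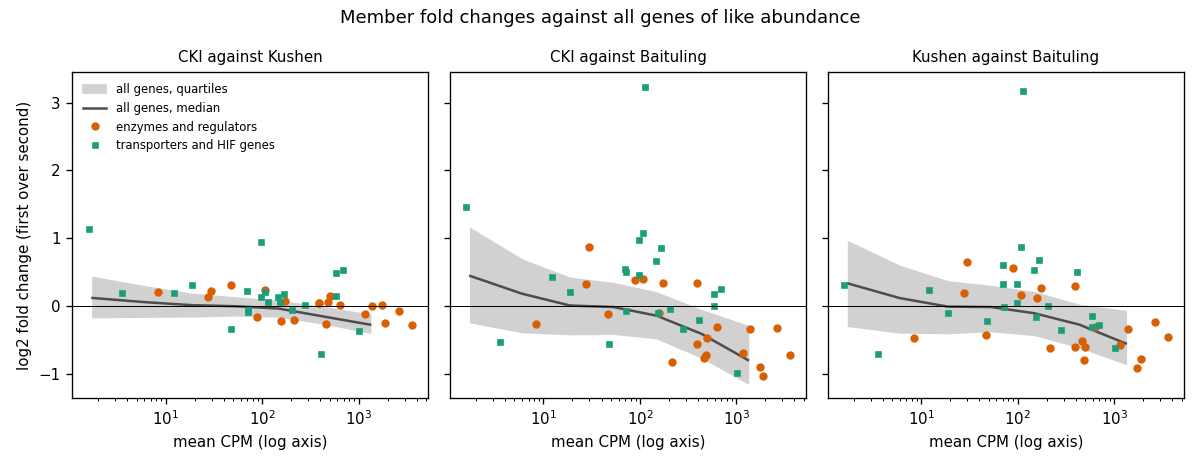
Log2 fold change (vertical axes) against mean CPM (horizontal axes, log scale) of the 43 genes, as orange circles for enzymes and regulators and green squares for transporters and HIF genes, over the median (line) and quartiles (grey) of all genes of like abundance. With TMM, the median of all genes falls below 0 at high CPM in each comparison. ANGPTL4 is the point above 3 in both comparisons with Baituling.

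Per transcript length, the 15 enzymes together made up 1.117% ± 0.0149 of all TPM in CKI, 1.146% ± 0.0230 in Kushen and 1.32% ± 0.0259 with Baituling (n = 3, SD). On this scale, which has no TMM factor, ALDOA was 1487 ± 50.3 TPM in CKI, 1402 ± 77.4 in Kushen and 1429 ± 45.1 with Baituling, and its groups overlapped. PKM was 1255 ± 15.1, 1246 ± 24.3 and 1193 ± 19.5, and each CKI and Kushen library lay above each Baituling library, the reverse of the order with TMM. GAPDH, at 2504 ± 34.9, 2800.3 ± 40.4 and 3899 ± 109 TPM, kept its order. GAPDH and ENO1 had the highest TPM of the 15 in all treatments.

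Shares between isozymes do not depend on the scaling of libraries. HK2 was 28.5% ± 0.667 of HK1 and HK2 in CKI, 32.4% ± 0.488 in Kushen and 35.0% ± 0.418 in Baituling. PFKM was 12.99% ± 0.600 of the phosphofructokinases in Kushen, 11.99% ± 0.278 in CKI and 7.21% ± 0.292 in Baituling, while PFKL was 19.1% ± 0.491, 17.1% ± 0.399 and 23.9% ± 0.309 in the same order. The share of ALDOC was 4.11% of aldolase in CKI, 3.55% in Kushen and 1.83% with Baituling, and that of ENO2 was 7.76%, 6.20% and 3.86% of enolase. The minor isozymes PFKM, ALDOC and ENO2 and the carrier SLC2A3 thus each had a lower share in all 3 Baituling libraries than in any other library. Levels of TPM rest on the exon lengths of the annotation, which set the size of each share.

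**Figure D4:**
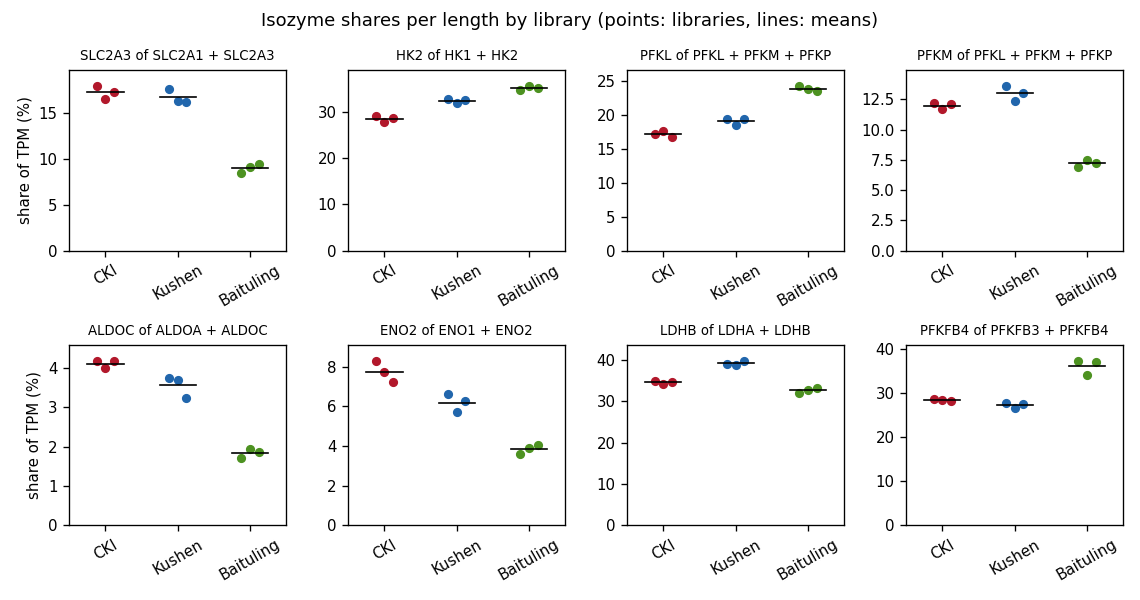
Share of TPM (percent, vertical axes starting at 0) of 1 isozyme in its family in each library (points) with the mean of each treatment (lines). SLC2A3, PFKM, ALDOC and ENO2 are lowest in Baituling, while HK2, PFKL and PFKFB4 are highest there.

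Lactate dehydrogenase closes the pathway. LDHA, the form that favours lactate (chromosome 11, 18416107 to 18429972), had 1309, 1360.0 and 1403 CPM in CKI, 1373, 1339 and 1304 CPM in Kushen and 2616, 2506 and 2463 CPM in Baituling. CKI and Kushen overlapped, and the lowest Baituling library had 2463 CPM. LDHA was 1.86-fold lower in CKI (-0.90 ± 0.041, adjusted p 1.49e-13) and 1.89-fold lower in Kushen (-0.92 ± 0.041, adjusted p 1.65e-13), the largest fall of the 43 genes in Kushen against Baituling, and did not pass between CKI and Kushen (0.02 ± 0.040, adjusted p 0.727). LDHB, the form of oxidative tissues, had 349, 348 and 368 CPM in CKI, 436, 419 and 425 in Kushen and 609, 606 and 608 in Baituling. It was lower in CKI than in Kushen, with a log2 fold change of -0.26 ± 0.039 (adjusted p 2.97e-05) and lower than in Baituling in both, with -0.78 ± 0.039 in CKI and -0.51 ± 0.039 in Kushen. Its share of lactate dehydrogenase per length was therefore highest in Kushen, at 39.2% ± 0.492, beside 34.6% ± 0.452 in CKI and 32.7% ± 0.645 in Baituling.

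Of the 4 flux regulators, PFKFB3 and PDK1 were higher in CKI and Kushen than in Baituling, and PFKFB4 and PDK3 were lower in Kushen than in Baituling. PFKFB3 and PFKFB4 make fructose 2,6-bisphosphate, the activator of phosphofructokinase. PFKFB3 (chromosome 10, 6186897 to 6296607) had 124, 124 and 124 CPM in CKI, 102, 111 and 104 CPM in Kushen and 94.3, 98.7 and 89.6 CPM in Baituling. The groups fell in the order CKI, Kushen, Baituling, the reverse of that of LDHB. In CKI PFKFB3 exceeded Kushen by 0.23 ± 0.046 (adjusted p 0.000645), above Baituling by 0.39 ± 0.047 (adjusted p 2.98e-07), and higher in Kushen than in Baituling by 0.16 ± 0.047 (adjusted p 0.0043).

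PFKFB4 (chromosome 3, 48555117 to 48599448) had 49.5, 48.9 and 48.4 CPM in CKI, 38.9, 40.1 and 39.6 CPM in Kushen and 55.7, 51.0 and 52.7 CPM in Baituling. Kushen was the lowest group, with its highest library at 40.1 CPM. CKI was higher than Kushen by 0.31 ± 0.051 (adjusted p 8.68e-05), and Kushen was lower than Baituling, with a log2 fold change of -0.43 ± 0.051 (adjusted p 3.71e-07). The value between CKI and Baituling was -0.12 ± 0.050 (adjusted p 0.0377), and it turned to 0.17 with library totals. That call was lost without CKI replicate 1, 2 or 3 (adjusted p 0.0569, 0.0805 and 0.0880) and without Baituling replicate 1 or 3 (adjusted p 0.166 and 0.0532). It was also lost with upper quartile scaling (-0.049, adjusted p 0.385), with a filter of 10 counts in each library (-0.077, adjusted p 0.162) and without a filter (adjusted p 0.0544). PFKFB4 was 28.4% of both kinases per length in CKI, 27.3% in Kushen and 36.1% in Baituling.

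PDK1, a HIF target that holds pyruvate back from the mitochondria by switching off pyruvate dehydrogenase (chromosome 2, 173420101 to 173473397), had 28.8, 31.7 and 31.3 CPM in CKI, 27.9, 29.1 and 26.9 CPM in Kushen and 23.8, 26.0 and 23.7 CPM in Baituling. CKI and Kushen overlapped (0.13 ± 0.062, adjusted p 0.112), and both lay above Baituling. PDK1 was higher than in Baituling by 0.32 ± 0.065 in CKI (adjusted p 0.000176) and 0.19 ± 0.066 in Kushen (adjusted p 0.0129, but 0.0543 without Kushen replicate 2 and 0.0561 without Baituling replicate 3). PDK3, a related kinase with 138 to 244 counts a library, was lower in Kushen than in Baituling, with a log2 fold change of -0.47 ± 0.13 (adjusted p 0.00294; -0.26 and not passed with library totals, adjusted p 0.0743). It did not pass in the other comparisons, though CKI against Baituling (-0.26 ± 0.12) passed without CKI replicate 3 or Baituling replicate 2 (adjusted p 0.0105 and 0.0194), without a filter (0.0262) and with DESeq2 size factors (0.0485).

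Among the HIF subunits, the transcript of HIF1A was highest in Kushen and that of EPAS1 differed little. HIF1A (chromosome 14, 62162231 to 62214977) had 327, 316 and 325 CPM in CKI, 534, 532 and 516 CPM in Kushen and 370.5, 370.2 and 378 CPM in Baituling. No groups overlapped, and the lowest Kushen library had 516 CPM. HIF1A was 1.64-fold lower in CKI than in Kushen (-0.71 ± 0.038, adjusted p 8.05e-11), the largest fall of the 43 genes in that comparison, and higher in Kushen than in Baituling by 0.50 ± 0.038 (adjusted p 5.17e-10). CKI was lower than Baituling, with a log2 fold change of -0.21 ± 0.038 (adjusted p 5.84e-05), which was 0.077 and did not pass with library totals. HIF1A overlaps 2 antisense genes, whose reads could not be told apart from its own.

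EPAS1 (chromosome 2, 46520806 to 46613836) had 147, 153 and 154 CPM in CKI, 138, 147 and 151 CPM in Kushen and 151, 175 and 162 CPM in Baituling. The 3 groups overlapped, except that the highest Kushen library was just below the lowest Baituling library. EPAS1 did not pass between CKI and Kushen (0.06 ± 0.051, adjusted p 0.4) or between CKI and Baituling (-0.11 ± 0.051, adjusted p 0.0677), though the latter passed without Kushen replicate 1 or Baituling replicate 1 (adjusted p 0.0360 and 0.00804), with DESeq2 size factors or the DESeq2 Wald test (0.0365 and 0.0408), without a filter (0.0355) and with only both groups in the fit (0.0469), and turned to 0.18 with library totals. Kushen was lower than Baituling, with a log2 fold change of -0.16 ± 0.051 (adjusted p 0.00822; 0.0742 without Baituling replicate 2, 0.0971 with upper quartile scaling, and a log2 fold change of 0.048 with library totals).

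The oxygen sensors are themselves HIF targets in part, EGLN3 most of all. EGLN1, the main prolyl hydroxylase (chromosome 1, 231499497 to 231558033), had 113, 107 and 111 CPM in CKI, 97.9, 103 and 101 CPM in Kushen and 79.5, 83.2 and 79.4 CPM in Baituling. The order was CKI, Kushen, Baituling from high to low without overlap. EGLN1 was higher in CKI than in Baituling by 0.45 ± 0.044 (adjusted p 1.73e-08) and in Kushen than in Baituling by 0.32 ± 0.045 (adjusted p 3e-06). Between CKI and Kushen it was 0.14 ± 0.043 (adjusted p 0.0176), a call lost without CKI replicate 1, CKI replicate 3, Kushen replicate 1 or Kushen replicate 3 (adjusted p 0.0839, 0.0517, 0.0542 and 0.0503).

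EGLN3 (chromosome 14, 34393433 to 34931980) had 20.1, 21.9 and 21.6 CPM in CKI, 16.1, 17.6 and 17.7 CPM in Kushen and 18.0, 18.9 and 18.5 CPM in Baituling. All CKI libraries were above all others. In CKI EGLN3 exceeded Kushen by 0.31 ± 0.069 (adjusted p 0.00149) and Baituling by 0.20 ± 0.070 (adjusted p 0.015; 0.0598 without CKI replicate 2, 0.0533 without Baituling replicate 1 and 0.0598 with DESeq2), with -0.11 ± 0.072 between Kushen and Baituling (adjusted p 0.186). VHL, the ubiquitin ligase subunit that binds hydroxylated HIFs (chromosome 3, 10183462 to 10195351), had 69.9, 67.6 and 73.0 CPM in CKI, 71.5, 72.6 and 73.9 CPM in Kushen and 77.5, 71.8 and 72.0 CPM in Baituling, and it passed in no comparison (log2 fold changes -0.05 ± 0.048, -0.07 ± 0.049 and -0.02 ± 0.049). With library totals VHL was 0.21 higher in CKI and 0.19 higher in Kushen than in Baituling on the log2 scale, within the shift of 0.29 and 0.21 that this scaling gave to the median of all genes.

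The 13 other HIF targets did not move as a set. In CKI compared with Kushen 6 were higher, 1 was lower and 6 did not pass. The shares among all genes were 19.6% higher and 20.2% lower. Compared with Baituling 9 were higher, 3 lower and 1 not past in CKI, and 6 were higher, 5 lower and 2 not past in Kushen. The shares among all genes were 39.1% higher and 37.0% lower in CKI, and 35.6% higher and 36.1% lower in Kushen. Library totals gave 10 higher and 1 lower in CKI, and 8 higher and 3 lower in Kushen. With that scaling 57.0% and 50.6% of all genes were higher, and 22.6% and 24.6% lower. With TMM the median log2 fold changes were 0.18, 0.43 and 0.04.

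Secreted factors that act on vessels differed between CKI and Kushen. ADM (adrenomedullin, a vasodilating peptide; chromosome 11, 10326620 to 10328944) had 141, 143 and 148 CPM in CKI, 74.5, 74.0 and 77.0 CPM in Kushen and 73.5, 64.0 and 81.9 CPM in Baituling. Kushen and Baituling overlapped, and each CKI library lay far above both. ADM was 1.92-fold higher in CKI than in Kushen (0.94 ± 0.061, adjusted p 9.33e-10), the largest rise of the 43 genes in that comparison after SLC16A1, and 1.97-fold higher than in Baituling (0.98 ± 0.062, adjusted p 2.37e-11; 0.89 without Baituling replicate 2 and 1.06 without Baituling replicate 3). Between Kushen and Baituling it was 0.04 ± 0.064 (adjusted p 0.593), but 0.25 with library totals, which passed (adjusted p 0.00131).

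VEGFA, the main growth factor of vessels (chromosome 6, 43737921 to 43754224), had 823, 823 and 803 CPM in CKI, 562, 530.0 and 596 CPM in Kushen and 663, 701 and 691 CPM in Baituling. CKI was highest, Kushen lowest, and Baituling between them without overlap. VEGFA was 1.45-fold higher in CKI than in Kushen (0.54 ± 0.044, adjusted p 2.4e-08), higher than in Baituling by 0.25 ± 0.044 (adjusted p 3.43e-05), and lower in Kushen than in Baituling, with a log2 fold change of -0.28 ± 0.044 (adjusted p 9.59e-06; -0.074 and not passed with library totals). NDRG1, a stress-responsive gene (chromosome 8, 134249418 to 134314265), had the same order, with 659, 672 and 705 CPM in CKI, 465, 491 and 493 CPM in Kushen and 592, 612 and 589.7 CPM in Baituling. The highest Kushen library had 493 CPM and the lowest CKI library 659. In CKI NDRG1 exceeded Kushen by 0.49 ± 0.041 (adjusted p 3.05e-08), higher than in Baituling by 0.18 ± 0.041, and -0.31 ± 0.041 in Kushen against Baituling (-0.098 with library totals).

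HIF1A and these targets were ordered differently across the treatments. Kushen had the highest level of the HIF1A transcript, and CKI had the highest levels of VEGFA, NDRG1 and ADM. Whether Kushen or Baituling was lowest for these targets depended on the scaling. With TMM Kushen was lowest for VEGFA and NDRG1 and overlapped Baituling for ADM. In TPM, without TMM, the Kushen and Baituling means were 165 and 163 for VEGFA and 170.1 and 171 for NDRG1, and ADM was higher in every Kushen library than in every Baituling library, with means of 137 and 108. The HIF proteins were not measured. The plot of HIF pathway genes by library shows these values.

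**Figure D5:**
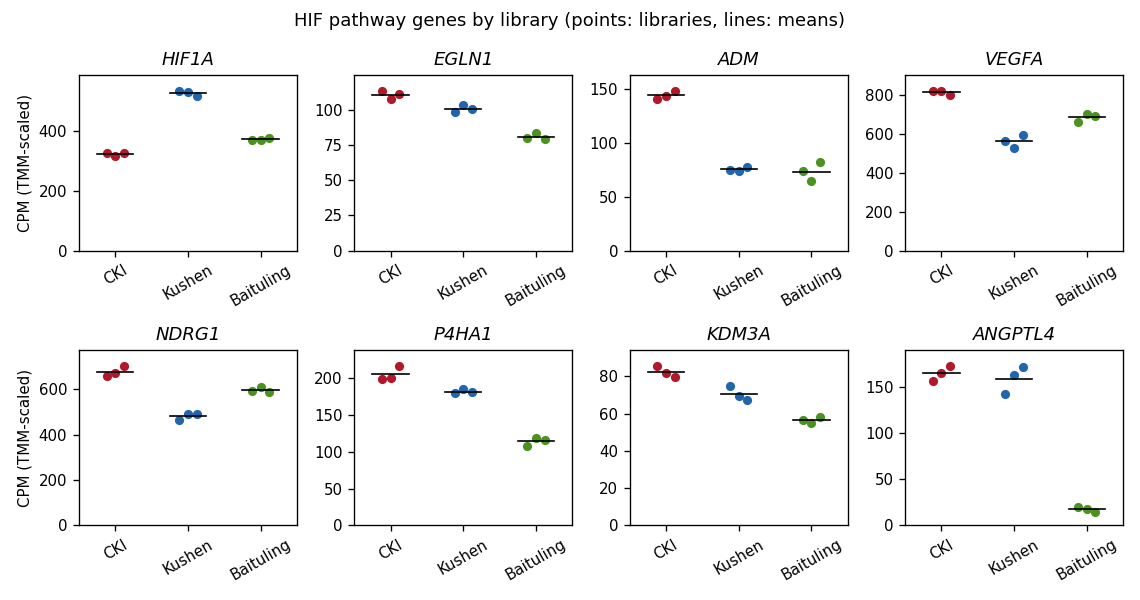
TMM-scaled CPM (vertical axes starting at 0) of 8 HIF pathway genes in each library (points), with the mean of each treatment (lines). HIF1A is highest in Kushen, ADM, VEGFA and NDRG1 are highest in CKI, and EGLN1, P4HA1, KDM3A and ANGPTL4 are lowest in Baituling.

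The carbonic anhydrases, which buffer the acid of glycolysis at the cell surface, were highest in Baituling when scaled by TMM. CA9, a widely used marker of HIF-1 activity (chromosome 9, 35673925 to 35681156), was scarce, with 72, 61 and 108 counts in CKI, 63, 58 and 79 in Kushen and 95, 83 and 83 in Baituling. As CPM these were 2.82, 2.46 and 4.27 in CKI, 2.53, 2.38 and 3.50 in Kushen and 4.63, 4.55 and 4.58 in Baituling. The Baituling libraries were above the others, and CKI replicate 3 was well above the other two of its group. CA9 was lower in Kushen than in Baituling, with a log2 fold change of -0.72 ± 0.19 (adjusted p 0.00284) and so was CKI, with -0.53 ± 0.19 (adjusted p 0.0168; 0.0656 without CKI replicate 1, 0.0962 without CKI replicate 2, and -0.24 with an adjusted p of 0.241 with library totals). CKI against Kushen was 0.19 ± 0.20 (adjusted p 0.474). CA9 also overlaps a gene on the opposite strand.

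CA12 (chromosome 15, 63613577 to 63674045) had 37.0, 38.0 and 39.3 CPM in CKI, 49.0, 47.6 and 48.8 CPM in Kushen and 53.9, 58.8 and 56.5 CPM in Baituling. The groups rose in the order CKI, Kushen, Baituling without overlap. CA12 was lower in CKI than in Kushen, with a log2 fold change of -0.35 ± 0.052 (adjusted p 3.17e-05) and lower than in Baituling, with -0.57 ± 0.052 (adjusted p 6.82e-09). Kushen against Baituling was -0.22 ± 0.051 (adjusted p 0.000822), and -0.0071 with library totals.

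P4HA1, a prolyl hydroxylase of collagen (chromosome 10, 74766975 to 74856732), had 198, 201 and 217 CPM in CKI, 179, 185 and 181 CPM in Kushen and 107, 118 and 116 CPM in Baituling. The order was CKI, Kushen, Baituling without overlap. P4HA1 was 1.80-fold higher in CKI (0.85 ± 0.048, adjusted p 4.02e-12) and 1.60-fold higher in Kushen (0.67 ± 0.048, adjusted p 1.96e-10) than in Baituling, and 0.18 ± 0.046 in CKI against Kushen. The related P4HA2 was higher than in Baituling by 0.66 ± 0.041 in CKI and 0.53 ± 0.041 in Kushen.

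KDM3A, a histone demethylase, was higher than in Baituling by 0.55 ± 0.051 in CKI and 0.32 ± 0.052 in Kushen, and MXI1, an antagonist of MYC, by 0.50 ± 0.053 and 0.60 ± 0.053. ANKRD37, with 181 to 366 counts a library, was higher by 0.43 ± 0.087 in CKI and by 0.23 ± 0.089 in Kushen, the latter an adjusted p of 0.0262 that was 0.118 without Kushen replicate 2, 0.0549 without Baituling replicate 1, 0.0862 without Baituling replicate 3 and 0.0636 with DESeq2. Of the mitophagy receptors, BNIP3 was lower than in Baituling, with log2 fold changes of -0.34 ± 0.040 in CKI and -0.35 ± 0.041 in Kushen, and BNIP3L passed in no comparison (-0.06 ± 0.042, -0.05 ± 0.042 and 0.01 ± 0.042; 0.24 in CKI and 0.22 in Kushen against Baituling with library totals). BNIP3 has 44 pseudogenes named after it in the annotation, so its count is uncertain. Its CKI value was -0.055 and did not pass with library totals.

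ANGPTL4 differed most of the 43 genes. It codes for a secreted inhibitor of lipoprotein lipase that is induced by HIFs and also by PPARs and by glucocorticoids. ANGPTL4 (chromosome 19, 8428173 to 8439254) had 156, 165 and 173 CPM in CKI, 142, 163 and 172 CPM in Kushen and 19.9, 18.1 and 14.6 CPM in Baituling. CKI and Kushen overlapped, and the highest Baituling library had 19.9 CPM. ANGPTL4 was 9.38-fold higher in CKI (3.23 ± 0.086, adjusted p 5.72e-17) and 9.04-fold higher in Kushen (3.18 ± 0.086, adjusted p 1.2e-16) than in Baituling, while CKI against Kushen was 0.05 ± 0.068 (adjusted p 0.568). It was the single gene of the 43 still past an adjusted p of 0.05 in a test for log2 fold changes beyond 1, in both comparisons with Baituling.
The 250 bases before its start (chr19:8363905-8364154, plus strand, GRCh38.p14) are shown because the largest change lies here, and hold 1 core, on the minus strand, in capitals.
ANGPTL4: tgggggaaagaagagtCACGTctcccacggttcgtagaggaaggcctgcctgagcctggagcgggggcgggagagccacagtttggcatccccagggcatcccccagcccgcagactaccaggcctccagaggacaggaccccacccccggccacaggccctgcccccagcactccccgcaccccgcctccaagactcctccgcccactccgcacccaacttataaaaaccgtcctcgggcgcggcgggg

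Further genes around the pathway were counted from lists drawn up by function. Of all genes, 19.6% were higher and 20.2% lower in CKI than in Kushen. Against Baituling, 39.1% and 37.0% were so in CKI and 35.6% and 36.1% in Kushen. The threshold of the study was passed by 1.90%, 19.1% and 15.2% of all genes in the same order. The list counts rest on TMM. No counts are given for them with library totals, which moved the median of all genes by 0.29 and 0.21 against Baituling. Of 30 further HIF targets, 12 were higher and 6 lower in CKI than in Kushen. Compared with Baituling, 9 were higher and 16 lower in CKI, and 7 were higher and 16 lower in Kushen, with medians of -0.16 and -0.30. TMEM45A was higher than in Baituling by 1.61 ± 0.076 in CKI and 1.55 ± 0.077 in Kushen. The glycoprotein hormone gene STC2, with 21 to 127 counts a library, was higher by 1.80 ± 0.21 and 1.13 ± 0.23. LOX, which cross-links collagen, was lower, with -1.05 ± 0.050 and -1.13 ± 0.051.

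Of 10 tested partners and degradation factors of HIF, 4 were higher and none lower in CKI than in Kushen, 4 were higher and 5 lower in CKI than in Baituling, and 2 were higher and 6 lower in Kushen than in Baituling. None of them passed the threshold of the study.

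Among other isozymes and transporters of glycolysis, 15 of the 26 listed genes were tested. HKDC1, a hexokinase, had 49.7, 46.1 and 48.7 CPM in CKI, 21.0, 24.9 and 22.7 CPM in Kushen and 11.6, 12.5 and 11.6 CPM in Baituling, and in CKI it exceeded Kushen by 1.08 ± 0.064 (adjusted p 3.34e-10) and Baituling by 2.02 ± 0.073 (adjusted p 4.9e-15). Its groups did not overlap. The glucose carrier SLC2A12 was higher than in Baituling by 1.30 ± 0.098 in CKI and 1.29 ± 0.098 in Kushen. SLC2A4, the insulin-regulated carrier, with 29 to 135 counts a library, was 1.33 ± 0.20 in Kushen against Baituling and -0.75 ± 0.17 in CKI against Kushen. In CKI 3 genes of this list were higher and 4 lower than in Kushen, and in CKI as in Kushen 7 were higher and 4 lower than in Baituling.

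Of the 12 genes that govern the entry of pyruvate into mitochondria, 3 were higher and 2 lower in CKI than in Kushen, 6 were higher and 2 lower in CKI than in Baituling, and 6 were higher and 3 lower in Kushen than in Baituling. PDK4, the kinase of pyruvate dehydrogenase that responds to fasting, had 28.5, 27.8 and 28.5 CPM in CKI, 22.7, 21.4 and 21.6 CPM in Kushen and 6.39, 7.46 and 8.23 CPM in Baituling, and was higher than in Baituling by 1.95 ± 0.083 in CKI and 1.58 ± 0.086 in Kushen (adjusted p 5.9e-14 and 3.17e-12). The lowest library of CKI and Kushen had 21.4 CPM and the highest of Baituling 8.23. The phosphatase PDP2, which acts against these kinases, was higher by 1.06 ± 0.098 and 1.04 ± 0.099.

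Of 9 tested genes of glycogen and gluconeogenesis, 1 was higher and 5 were lower in CKI than in Kushen, 2 were higher and 6 lower in CKI than in Baituling, and 1 was higher and 5 lower in Kushen than in Baituling. FBP1, which runs the phosphofructokinase step backwards, had 15.3, 14.3 and 18.5 CPM in CKI, 20.6, 21.3 and 20.5 CPM in Kushen and 66.7, 65.6 and 60.7 CPM in Baituling, and was lower than in Baituling, with log2 fold changes of -2.0 ± 0.074 in CKI and -1.63 ± 0.072 in Kushen (adjusted p 6.98e-15 and 1.72e-13). The lowest Baituling library had 60.7 CPM and the highest of the others 21.3. The mitochondrial PCK2, which makes phosphoenolpyruvate, was lower, with -1.28 ± 0.058 and -1.03 ± 0.057. PYGM, the muscle glycogen phosphorylase, had 28 counts or fewer in every library, and its value of 1.86 ± 0.47 in CKI against Baituling is imprecise.

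The glucose-sensing MondoA axis had 4 tested genes, and TXNIP, also on the list, was not matched. All 4 tested genes were higher in CKI than in Baituling, 3 were higher in Kushen than in Baituling, and 1 was higher in CKI than in Kushen. Of all genes, 39.1%, 35.6% and 19.6% were higher in the same order. MLXIPL (ChREBP, a sugar-responsive transcription factor) was higher than in Baituling by 1.51 ± 0.14 in CKI and 1.68 ± 0.14 in Kushen.

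Some of the counts carry limits of their own. Besides those named above, PFKM, TPI1, PGK1, ENO1, ANKRD37, BNIP3L and P4HA2 overlap a gene on the opposite strand, 11 of the 43 genes in all. Pseudogenes are named in the annotation after 18 of the genes, with 65 for GAPDH, 13 for PGAM1, 6 for LDHA and 5 for PKM. How the authors' counting treated reads that fit several such copies is not given in the sources used here.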

How the data were processed

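RNA sequencing libraries of treated MDA-MB-231 cells (3 of each of 3 treatments) were analysed from a table of read counts per gene, deposited by the authors, who trimmed paired reads with Trim Galore 0.3.7 and aligned them to hg19 with STAR 2.5.3a. The counting program and annotation are not given in the sources used here. Of 24566 rows, 222 repeated an Ensembl gene and were kept once. Symbols came from GENCODE on GRCh37 (24224 genes) or RefSeq (99), and 21 genes had none. The authors also used edgeR.

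Counts were filtered with filterByExpr (minimum count 10, minimum total 15), which removed 10149 genes. They were scaled by TMM and tested with edgeR 4.0.16 (limma 3.58.1, R 4.3.3) in 1 quasi-likelihood fit of all 9 libraries with group as the only term, and p-values were adjusted over the 14195 genes by the Benjamini-Hochberg method. The TMM factors were 0.877 to 0.899 in Baituling, 1.024 to 1.047 in Kushen and 1.075 to 1.099 in CKI. The common biological coefficient of variation was 4.53%, and no pair of replicates was alike within counting error (chi-square of 1.70 to 6.85 per gene over 9 pairs). Nothing in the labels says that replicates are separate cultures, so p-values measure the spread between these libraries, which may be technical. TPM used summed exon lengths. DESeq2 1.42.0, 3 other scalings, other filters, a test against a log2 fold change of 1, left-out libraries and a replicate term were alternatives.

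The genes, lists and tests were chosen with earlier results of these data known. Per-library values are given for those 4 genes that rose most and those 4 that fell most in each comparison (adjusted p under 0.05, mean log2 CPM of at least 1, no overlap of libraries) and for 14 genes chosen by role (SLC2A1, HK2, PFKFB3, PFKFB4, LDHA, PDK1, HIF1A, EPAS1, EGLN1, EGLN3, VHL, CA9, VEGFA and ADM). SLC16A1, ENO2, LDHB, HKDC1, PDK4 and FBP1 were added after their values were seen. From the other lists, up to 4 genes past the threshold of the study were named. Of the 95 genes of these lists, 94 were matched by symbol.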

Additional observations from a re-analysis of the deposited data

How the results depend on the processing

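Over 19 alternatives, 2265 of 2451 values of the 43 genes kept their side of the threshold. Of the rest, 155 fell short of the test, 22 passed it newly and 9 turned. Of the 155, the test against a log2 fold change of 1 gave 25 in CKI against Kushen and 37 in each comparison with Baituling. A value was counted as turned only if its direction changed and it passed in the main or the alternative fit. The 2265 include changes of direction that passed in neither fit, such as ALDOA and VHL in CKI against Kushen with library totals (0.072 and 0.025). All 9 turned with library totals in place of TMM, which moved the median of all genes by 0.08, 0.29 and 0.21 (log2; CKI against Kushen, CKI against Baituling and Kushen against Baituling), while upper quartile scaling moved it by 0.001, 0.07 and 0.07. With library totals, CKI against Baituling was 0.24 for BNIP3L, 0.18 for EPAS1, 0.077 for HIF1A, 0.19 for HK2, 0.17 for PFKFB4 and 0.21 for VHL, and Kushen against Baituling was 0.048 for EPAS1, 0.064 for SLC2A1 and 0.19 for VHL. The medians of the 43 genes became 0.21 in CKI and 0.064 in Kushen against Baituling. With this scaling 23 genes were higher in CKI than in Kushen and 11 lower in CKI than in Baituling. The threshold of the study was passed by 2 genes in CKI against Kushen, 2 in Kushen against Baituling and 6 in CKI against Baituling. Among the 6, ADM (1.26), ALDOC (1.15) and P4HA1 (1.14) had joined, while GAPDH (-0.75) had left. Among all 14195 genes tested, 304 were past that threshold as higher and 22 as lower in CKI against Kushen. The same counts were 1813 and 618 in Kushen against Baituling, and 2527 and 630 in CKI against Baituling. In CKI against Kushen, ANKRD37, ENO2, EPAS1, GPI, HK1, LDHA, PDK1 and TPI1 then passed (0.095 to 0.27), and PFKM and PGK1 (-0.092 and -0.039) did not. Upper quartile scaling gave a median of -0.078 in Kushen against Baituling. A test against a log2 fold change of 1 (edgeR's glmTreat) left 0 genes higher and 0 lower in CKI than in Kushen, and 1 higher and 0 lower in each comparison with Baituling, which was ANGPTL4. These counts are smaller by the construction of that test.

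Leaving out 1 library at a time gave 12 to 16 genes higher and 9 to 10 lower in CKI than in Kushen, 18 to 19 and 16 to 20 in CKI against Baituling, and 14 to 16 and 21 to 22 in Kushen against Baituling. The threshold of the study was passed by 0 to 1, 3 to 6 and 1 to 1 genes, with 0 without Kushen replicate 1. The medians were 0.03 to 0.08, -0.11 to -0.04 and -0.17 to -0.093, the last without Kushen replicate 1. In CKI against Kushen PGK1 lost its call without CKI replicate 1, CKI replicate 2 or Kushen replicate 2 (adjusted p 0.109, 0.0792 and 0.0988), PGAM1 without CKI replicate 3 (0.0514) and P4HA2 without CKI replicate 2 (0.0623), and ANKRD37 gained one without Kushen replicate 2 (0.0355).

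Libraries of the same number did not deviate together (r of -0.07 to 0.12 over 9 pairs, beside -0.15 to 0.18 for other pairs), so the numbers were not taken to pair them. With the replicate block, PGK1 in CKI against Kushen (-0.11, adjusted p 0.0555) and HK2 and PFKFB4 in CKI against Baituling (-0.10 and -0.12, adjusted p 0.0550 and 0.0559) fell short, and no other call of the 43 genes changed.

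With the longest transcript as gene length, the shares in CKI, Kushen and Baituling were 14.9%, 14.4% and 7.68% for SLC2A3, 19.6%, 22.6% and 24.8% for HK2, 11.1%, 12.2% and 6.82% for PFKM, 11.7%, 13.1% and 16.6% for PFKL, 5.86%, 4.66% and 2.89% for ENO2, 27.6%, 31.7% and 26.0% for LDHB, and 33.8%, 32.6% and 42.2% for PFKFB4. The 15 enzymes were then 1.38%, 1.42% and 1.58% of all TPM, LDHA and LDHB together 0.265%, 0.260% and 0.362%, and SLC16A1 0.402% in CKI. The order of the treatments was the same as with summed exon lengths for each of these shares. Low counts limit SLC16A1, CA9, STC2 and PYGM most.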
